A study of Mus musculus with 14 samples.

Results

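The ADAM and ADAMTS metalloproteases of the mouse testis were followed on 14 arrays, as every gene whose name in the scanner files begins with Adam, Adamts or Adamtsl and goes on with a digit. This rule found 50 of the 27962 gene names on the array, measured by 96 of its 41174 probes, and the brightest probe stood for each gene. They fall into 15 ADAM genes known from sperm and the germ line, 12 somatic ADAM genes, the epididymal Adam7, 17 ADAMTS genes and 5 ADAMTS-like genes. The samples are total RNA of testis from C57BL/6 mice, labelled with Cy3 and hybridized singly to Agilent 60-base arrays. WT, labelled as wild type, and Glis3KO2, the label of the mice in which the transcription factor gene Glis3 was disrupted, were compared with 4 arrays each at 1 week and 3 arrays each at 4 weeks. All groups share the strain, pups stayed with their mother, and no treatment was given. The sample labels say 4 weeks for the older mice and the series description says 3 weeks, and the sample labels are followed. The sources used here do not describe the structure of the Glis3 allele, whether all cells carry it, or whether samples are separate animals, so p-values measure the spread between these samples only.

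ADAM proteins are membrane-anchored proteins with a disintegrin and a metalloprotease domain. Somatic members such as ADAM10 and ADAM17 cut the outer part off other membrane proteins, whereas many sperm members have lost the catalytic site, are made in spermatocytes and spermatids, and are matured on the way to the sperm surface. ADAMTS proteases are secreted, carry thrombospondin repeats and cut proteoglycans, procollagens and other matrix proteins, and the ADAMTS-like proteins lack the protease domain.

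Signals of a gene rest on its 60-base probe, so the probe sequences set what was measured. Each line gives 30 bases of a probe, 5′ to 3′, with the position of the whole probe in the deposited mm7 annotation. The first pair is shown because these neighbouring genes moved in opposite directions at 4 weeks. Adam32 and Adam9 are 83.1 kb apart, both on the minus strand.
Adam32 (chr8:23619897-23619956): tggcgtgtgcgtagaatcgagatttcttag
Adam9 (chr8:23703096-23703155): agtggtttccttagataactacagaattat
The next 5 are shown because 3 of them match the telomeric repeat CCCTAA, in capitals, with a score of 7 or more. The score counts 1 for each matching base and -1 for each mismatch in the probe sequence itself, and the opposite strand was not scored.
Adamts4, score 9 (chr1:171229633-171229692): tcacctattaTAGCCCTAACCtagctatga
Adamts12, score 8 (chr15:11406886-11406945): atttcagACCCTAACttcccatctggttag
Adamts12, score 4 (chr15:11358202-11358261): gaagcccaaagcactggtttcctgcaacag
Adamts12, score 4 (chr15:11394446-11394505): gctctcagaaaagaaccattcattgcatcc
Adam24, score 7 (chr8:39472255-39472314): cggatgaatgggCTAACCCctagataaaga
Adamts10, with a score of 8, is the fourth gene of the family whose probe matches. Such a match was present in 3.96% of the 27962 probes that stand for a gene and in 4 of the 50 here. Between any 2 of the 105 pairs of sperm ADAM probes, the longest run of identical bases was 9.

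Every value is the log2 signal of a probe minus the 75th percentile of its array, and levels are compared only within a probe. A gene was tested if 3 or more arrays of a compared group had its probe well above background, with limma's empirical Bayes test and Benjamini-Hochberg adjustment over all genes tested, and was called at an adjusted p under 0.05. The arrays had 74.3% to 86.6% of their non-control spots clearly over background. The deleted gene was measured first: Glis3 was at -4.87 ± 0.18 (SD, n = 4) in 1-week WT and not well above background on any 1-week Glis3KO2 array, at least 4.25-fold lower (limma adjusted p = 0.0057). At 4 weeks it was not well above background in either group, so the labels of that age have no such check. Every 1-week array lies on other slides than the 4-week arrays and was scanned on other days, so age and slide cannot be told apart. Sertoli cell markers (9 of 9) were well above background on all arrays, and all 7 markers of elongating spermatids on the 4-week arrays.

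The sperm ADAM genes were low in every 4-week Glis3KO2 sample. All 15 fell, with log2 differences from -3.28 for Adam4 to -2.14 for Adam1a (4.40-fold to 9.69-fold lower), a median of -2.41, and limma adjusted p-values from 0.0010 to 0.0034. Among all 21334 genes tested at 4 weeks, 69.2% were called, 35.2% higher and 33.9% lower in Glis3KO2, and the median difference was 0.030. The arrays of the 2 genotypes did not overlap for any of the 15, against 77.0% of all genes tested. All 15 were well above background on all 6 arrays.

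**Figure D1:**
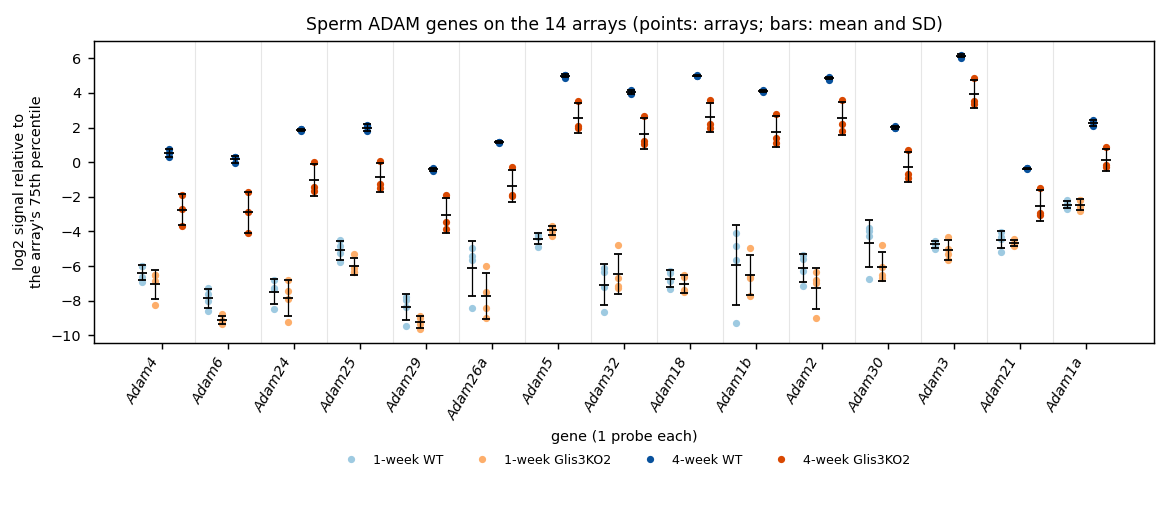
Log2 signal of the 15 sperm ADAM genes minus the array's 75th percentile, by gene on the horizontal axis. Points are arrays, bars are the group mean and SD. In each gene the 3 4-week WT points lie together above the 3 4-week Glis3KO2 points, and the 1-week points of both genotypes lie below.

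Adam4 had the largest difference of the class. Its 4-week WT arrays read 0.32, 0.74 and 0.52, and the Glis3KO2 arrays -2.71, -3.67 and -1.87, a difference of -3.28 (SE 0.43, limma adjusted p = 0.0010). The WT arrays lie within a narrow band and Glis3KO2 replicate 3 is nearest to them. Adam6, which current annotation names Adam6a by its accession, read -0.07, 0.29 and 0.30 in WT and -2.87, -4.11 and -1.72 in Glis3KO2 (difference -3.07, SE 0.56). Adam24, encoding testase 1, read 1.78, 1.89 and 1.92 in WT against -1.41, -1.68 and 0.00 in Glis3KO2 (difference -2.89). Both genes again had Glis3KO2 replicate 3 as the highest of the 3. Adam25, encoding testase 2, fell by 2.87 on the log2 scale, Adam29 by 2.65, Adam26a by 2.53, Adam5 by 2.45 and Adam32 by 2.41.

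The best known sperm ADAM genes lay lower in that order and are given here for their roles, a choice made after their values were seen. Adam2 encodes fertilin beta, the partner through which several sperm ADAM proteins reach the surface, and read 4.87, 4.77 and 4.92 in 4-week WT against 1.78, 2.22 and 3.61 in Glis3KO2 (difference -2.32, SE 0.45). Adam3, encoding cyritestin, which sperm need to pass into the oviduct, read 6.04, 6.21 and 6.15 against 3.38, 3.55 and 4.83 (difference -2.21, SE 0.38). No array of 1 genotype reached the other for either gene. Adam1a and Adam1b, encoding the 2 forms of fertilin alpha, fell by 2.14 and 2.35. Adam18 fell by 2.41, Adam30 by 2.29 and Adam21 by 2.14 on the same scale. Other probes that were well above background on all arrays of a 4-week group exist for 7 of the 15 genes, and all 9 of these were lower in Glis3KO2, by differences between -2.76 and -2.09.

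Glis3KO2 replicate 3 had the highest signal of its group in 15 of 15 sperm ADAM genes. Its median difference from the WT mean was -1.42, while replicates 1 and 2 were at -3.02 and -2.82. Without it the median over the 15 genes was -2.92, and all 15 were still called. Slide 4 holds 2 arrays of each genotype and gave a median of -2.92, slide 5 holds 1 of each and gave -1.51, and all 15 were lower on both. The Glis3KO2 array of slide 5 is replicate 3, so slide and replicate cannot be told apart here. The medians of meiotic and later germ cell markers were also highest on replicate 3. Those of 8 round spermatid markers were -2.92, -3.15 and -1.59 from the WT mean in replicates 1, 2 and 3, and those of 10 spermatocyte markers -2.02, -1.98 and -0.997. The medians of 7 elongating spermatid markers were -2.93, -3.77 and -2.22. Not every marker followed: the highest signal of an elongating spermatid marker was 6.39 on replicate 1 and 5.63 on replicate 3. The 6 spermatogonial markers measured did not follow this, with medians of -0.32, 0.05 and 0.00058, and 2 were called higher and 2 lower at 4 weeks (median -0.09). All 8 round spermatid markers, all 7 elongating spermatid markers and 9 of 10 spermatocyte markers were called lower at 4 weeks, with median differences of -2.55, -2.99 and -1.64. The Sertoli cell markers rose in 8 of 9 (median 2.04). In whole testis, fewer cells of a type and less RNA per cell cannot be told apart, and the part of the cell makeup in the fall of the sperm ADAM genes was not tested.

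A list of 17 further sperm genes, chosen with earlier results of these data known, holds factors that sperm ADAMs need to mature together with acrosome, hyaluronidase and egg-binding genes such as Zpbp, Spam1 and Izumo1. Of 17 tested at 4 weeks, 15 fell and 1 rose (median -2.33), where 33.9% of all genes tested were called lower and 35.2% higher. Prss37, a protease-like protein needed for ADAM3 maturation, fell by 3.54 on the log2 scale, and Calr3, a testis chaperone of ADAM3, by 3.20. Izumo1, the sperm protein that binds the egg, fell by 2.95 and Ace, encoding angiotensin-converting enzyme, whose testis form acts on ADAM3 distribution, by 1.75. The exception Tpst2, a tyrosylprotein sulfotransferase, rose by 0.87 (limma adjusted p = 0.0044), and Pgap1 was at 0.27 and was not called. Tpst2 and Pgap1 are named because they stand outside the direction of the other 15, a choice made after seeing their values.

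Somatic ADAM genes moved the other way or were not called. Of the 10 tested at 4 weeks, 7 rose, none was lower by limma at an adjusted or unadjusted p under 0.05, and 3 did not pass the test. The median of the 10 was 1.16, beside 0.030 for all genes tested, of which 35.2% were called higher and 33.9% lower. Adam33 had the largest difference, reading -4.71, -5.16 and -5.21 in WT and -1.54, -2.06 and -2.80 in Glis3KO2 (2.89, SE 0.33, limma adjusted p = 0.00074). The WT arrays lay below every Glis3KO2 array. Its other 2 probes, well above background on all 14 arrays, were higher by 1.25 and 0.83, so the rank of Adam33 rests on 1 probe. Adam9, a widely expressed sheddase, read 1.13, 0.92 and 1.06 against 2.46, 3.06 and 2.65 (1.69, SE 0.19), and Glis3KO2 replicate 3 lay between the other two here. Adam10, the sheddase that cuts Notch receptors and cadherins, read -4.75, -5.09 and -5.03 against -3.39, -2.94 and -3.51 (1.68, SE 0.20).

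Adam17, the sheddase of tumour necrosis factor and of EGF receptor ligands, read -0.01, -0.25 and -0.11 in 4-week WT and 0.80, 1.12 and 0.69 in Glis3KO2 (0.99, SE 0.17, limma adjusted p = 0.0022). Adam23, a member without protease activity, rose by 1.36, Adam8, expressed in leukocytes, by 1.32 and Adam15 by 0.52. The call of Adam15 was lost without WT replicate 2 or 3 or Glis3KO2 replicate 1 or 2, with adjusted p-values between 0.058 and 0.10. Adam11 (-0.28, with its other 2 probes at -0.93 and -0.28), Adam19 (-0.32) and Adam28 (0.19) were not called. Adam12 was not well above background on any 4-week array and Adam22 on none of the 14, so neither was tested at that age. Of 9 tested genes that help ADAM10 and ADAM17 to mature, 6 rose, 1 fell and 2 were not called. Among all genes tested at 4 weeks, 35.2% were called higher and 33.9% lower. Rhbdf2, the inactive rhomboid that carries ADAM17 to the surface, rose by 3.14, the protease Furin by 2.68, and the tetraspanin gene Tspan17 by 2.39. Rhbdf1 rose by 2.04. Tspan33 (-1.29) fell, and Tspan15 (0.13) and Pcsk7 (-0.09) were not called. These genes that did not rise are named outside the naming rule, after their values were seen.

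**Figure D2:**
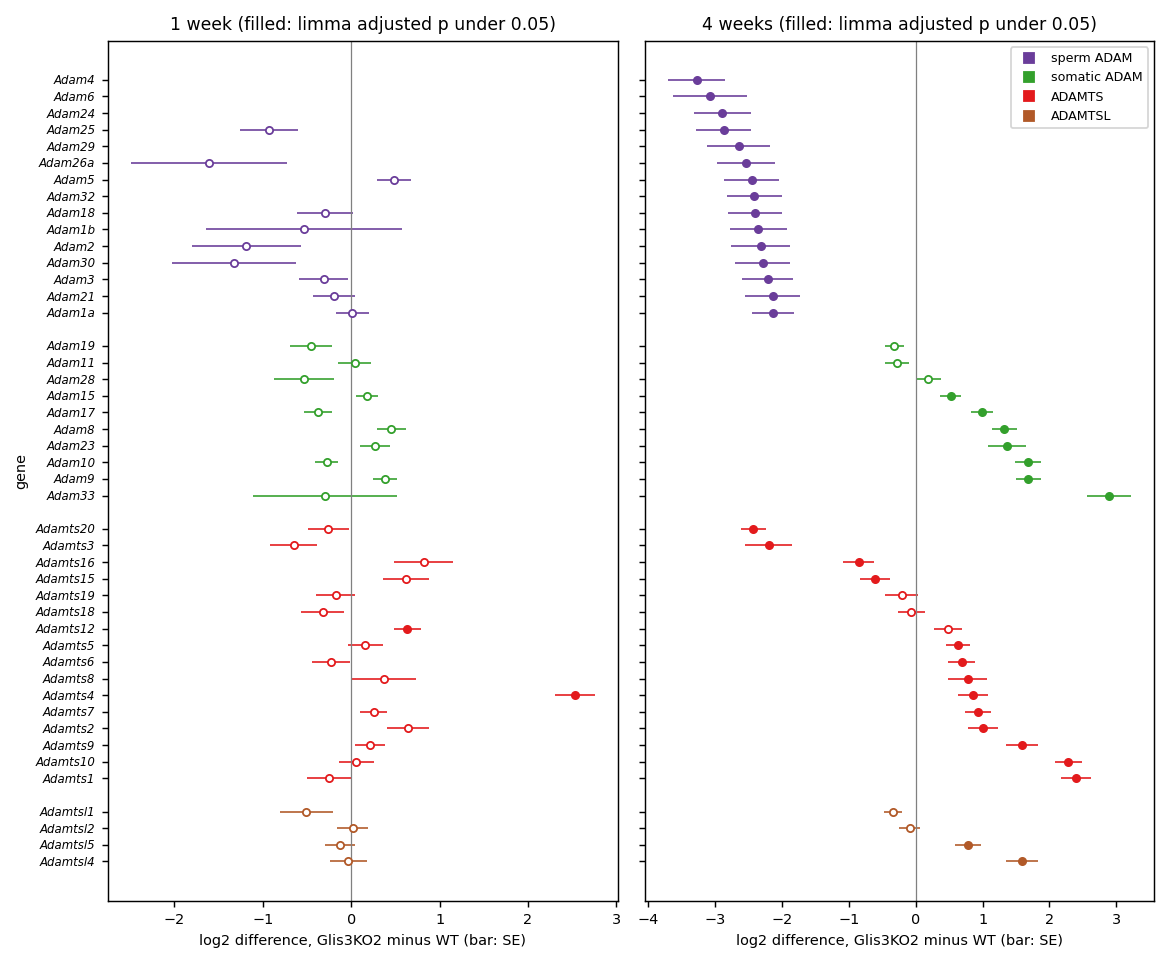
Log2 difference Glis3KO2 minus WT of the ADAM, ADAMTS and ADAMTSL genes tested at 4 weeks, with the same genes at 1 week on the left where tested. Points are genes, bars the standard error, filled points a limma adjusted p under 0.05 over all genes. At 4 weeks the 15 sperm ADAM genes lie at -2.14 or below, and at 1 week 2 ADAMTS genes are filled.

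Of the 16 ADAMTS genes tested at 4 weeks, 9 rose, 4 fell and 3 were not called. The shares of all genes tested were 35.2% called higher and 33.9% lower. Proteoglycan-cutting members took both directions, 5 higher and 2 lower of 7. Adamts1, a protease of versican and aggrecan, read -1.99, -2.14 and -1.67 in WT and 0.08, 0.60 and 0.70 in Glis3KO2 (2.39, SE 0.22, limma adjusted p = 0.00056). Adamts9 read -1.57, -1.59 and -1.69 against 0.28, 0.19 and -0.56 (1.59, SE 0.24). No WT array reached a Glis3KO2 array in these genes. The other probe of Adamts1, well above background on all 14 arrays, was higher by 0.42, and the other 2 probes of Adamts9 by 2.43 (above background on 1 of 3 WT arrays) and 2.04. Adamts4 and Adamts5, the aggrecanases, rose by 0.86 and 0.63, and Adamts8 by 0.78. Adamts4 was not called with normexp background correction (0.44, limma adjusted p = 0.067), nor Adamts5 with the mean of its probes (0.31, limma adjusted p = 0.25).

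Adamts20, the closest relative of Adamts9, had the largest fall of the ADAMTS class. It read -2.79, -2.79 and -2.58 in 4-week WT and -5.46, -5.08 and -4.89 in Glis3KO2 (-2.43, SE 0.19, limma adjusted p = 0.00049). Its difference lies within the range of those of the sperm ADAM genes. Of its other probes, 1 was at -0.78, and the other was not well above background on any 4-week array. Adamts15 fell by 0.61. The calls of Adamts8 and Adamts15 are narrow, with adjusted p-values of 0.048 and 0.044. Adamts8 lost its call without any of 5 of the 6 arrays, WT replicates 1 to 3 and Glis3KO2 replicates 1 and 2 (adjusted p-values up to 0.15), and Adamts15 without any of the same 5 (up to 0.14). Adamts8 was also not called with median scaling, quantile normalization, no filter, 1 fit of all arrays, the replicate block (limma adjusted p-values from 0.069 to 0.092) or the mean of its probes (0.33, limma adjusted p = 0.24). Adamts15 was not called with no filter, 1 fit or the replicate block (limma adjusted p-values from 0.066 to 0.080).

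The 2 procollagen N-proteinases split. Adamts2, which trims procollagen I, read 2.05, 1.28 and 1.83 in WT and 2.79, 2.84 and 2.55 in Glis3KO2 (1.00, SE 0.23), and rose. Adamts3 read -4.54, -3.88 and -4.14 against -6.03, -7.16 and -5.97 (-2.20, SE 0.36), and fell. Of its other probes, 1 went the other way (1.50) but was well above background on 1 of the 6 arrays only, a Glis3KO2 array. The last was at -0.63 and well above background on none. Both are too near background to check the fall, so the fall of Adamts3 rests on 1 probe. The mean of its probes was at -0.44 and was not called (limma adjusted p = 0.14).

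Among the other 7 tested ADAMTS genes, 3 rose, 1 fell and 3 were not called. Adamts10, which binds fibrillin, read -4.03, -4.36 and -4.48 in WT and -1.81, -1.89 and -2.32 in Glis3KO2 (2.28, SE 0.20). Of its other probes, 1 was well above background on all 14 arrays and was higher by 2.01. The last was well above background on the 3 4-week Glis3KO2 arrays and on no 4-week WT array. Adamts7, a protease of cartilage oligomeric matrix protein, rose by 0.93 and Adamts6 by 0.69, where normexp background correction gave Adamts6 0.33 (limma adjusted p = 0.22). Adamts16 fell by 0.86 and was well above background on 1 of 3 Glis3KO2 arrays; with normexp background correction it was at 0.036. Leaving out 1 array ended the call of Adamts16 (WT replicate 2), Adamts5 (WT replicate 2 or Glis3KO2 replicate 2) and Adamts6 (WT replicate 2 or 3, Glis3KO2 replicate 1 or 2), with adjusted p-values between 0.051 and 0.070. Without WT replicate 2 the count of somatic ADAM, ADAMTS and ADAMTSL genes called lower was 2 in place of 4. Adamts12 (0.49), Adamts18 (-0.07) and Adamts19 (-0.21) were not called, and Adamts13, the protease of von Willebrand factor, was tested in no comparison.

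Of the 4 ADAMTS-like genes tested at 4 weeks, Adamtsl4 rose by 1.59 (limma adjusted p = 0.0016) and Adamtsl5 by 0.78, while Adamtsl1 (-0.34) and Adamtsl2 (-0.09) were not called and Adamtsl3 was not tested. Over all 30 somatic ADAM, ADAMTS and ADAMTSL genes tested, 18 rose, 4 fell and 8 were not called, with a median of 0.73. Of all genes tested at 4 weeks 69.2% were called, 35.2% higher and 33.9% lower, so many calls are not particular to these genes. Of the 24 other probes, of 16 of these genes, that were well above background on all arrays of a 4-week group, 21 had the sign of the brightest probe, and the exceptions were probes of Adam19, Adamts5 and Adamts12. Most markers of somatic cells other than Leydig cells also rose: 8 of 9 Sertoli cell, 4 of 6 peritubular, 5 of 7 macrophage and 3 of 5 endothelial markers were called higher at 4 weeks. The peritubular marker Actg2 (-0.59) and the macrophage marker H2-Ab1 (-0.50) were called lower, and of 8 Leydig cell markers 2 were higher and 3 lower. The part of these cells in the higher ADAM and ADAMTS signals was not tested.

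**Figure D3:**
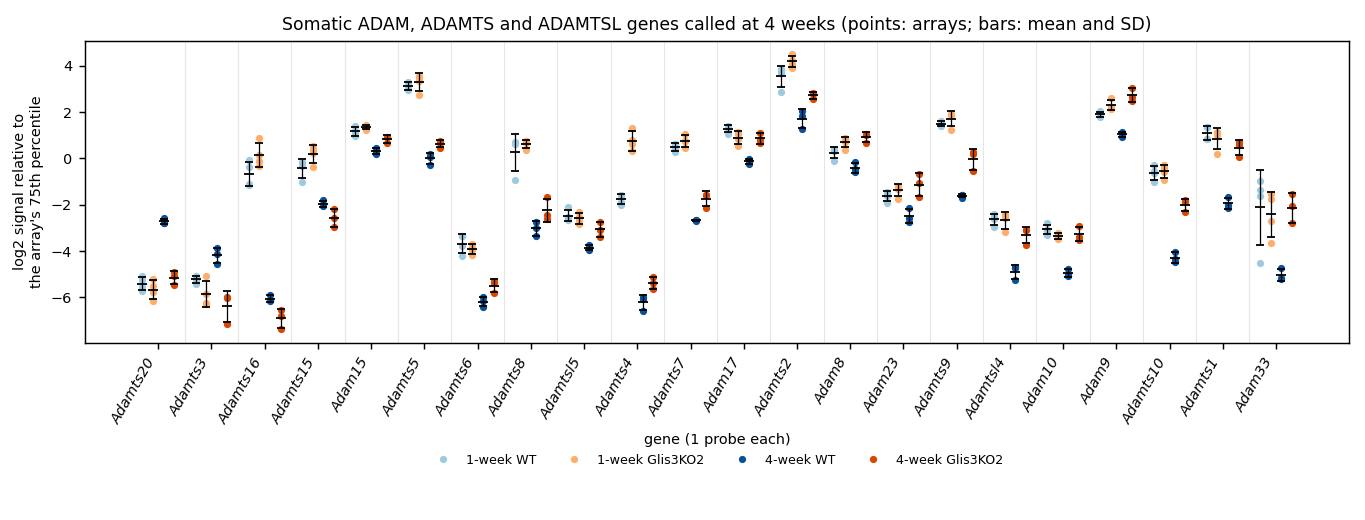
Log2 signal minus the array's 75th percentile for the 22 somatic ADAM, ADAMTS and ADAMTSL genes called at 4 weeks, ordered by their 4-week difference. Points are arrays, bars the group mean and SD. The 4 genes at the left fell in 4-week Glis3KO2 and the 18 to their right rose.

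Inhibitors and substrates of these proteases were taken as further lists. Of 7 inhibitor genes tested at 4 weeks, 4 rose and 2 fell, where 35.2% of all genes tested were called higher and 33.9% lower. The tissue inhibitors Timp2 and Timp1 rose by 1.90 and 1.83, Reck, encoding a membrane-anchored metalloprotease inhibitor, rose by 1.13, and Papln, encoding papilin, fell by 1.60. Timp3, which blocks several ADAM and ADAMTS proteases, rose by 1.68 and is named outside the naming rule for that role, after its value was seen. Of 11 substrate genes tested, 4 rose and 3 fell, which is near these shares of all genes. Bcan, encoding the proteoglycan brevican, rose by 5.63 (SE 0.63, limma adjusted p = 0.00070), and Comp, encoding cartilage oligomeric matrix protein, fell by 2.34. Fbn2 fell by 1.76 and Nid1, encoding nidogen, rose by 1.10.

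Several members lie side by side in the genome. On chromosome 8, Adam18, Adam3, Adam5, Adam32 and Adam9 follow each other on the minus strand between 23388217 and 23703155 (mm7), with gaps of 74.9, 70.2, 86.4 and 83.1 kb between their probes. The 4 sperm ADAM genes of this run fell at 4 weeks by 2.41, 2.21, 2.45 and 2.41, whereas their neighbour Adam9, whose probe is shown with that of Adam32 above, rose by 1.69. Adam24 and Adam25, 74.1 kb apart on the same chromosome, both fell. Other pairs also lie close: Adam1b and Adam1a on chromosome 5 (18.6 kb) and Adam4 and Adam21 on chromosome 12 (138 kb) fell together. Adamts1 and Adamts5 on chromosome 16 (67.6 kb) rose together, and of Adamts15 and Adamts8 on chromosome 9 (61.7 kb) the first fell and the second rose. In the pairs Adamts13 and Adamtsl2 on chromosome 2 (102 kb) and Adam7 and Adam28 on chromosome 14 (129 kb), no gene was called. Adamts13 and Adam7 were not tested.

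**Figure D4:**
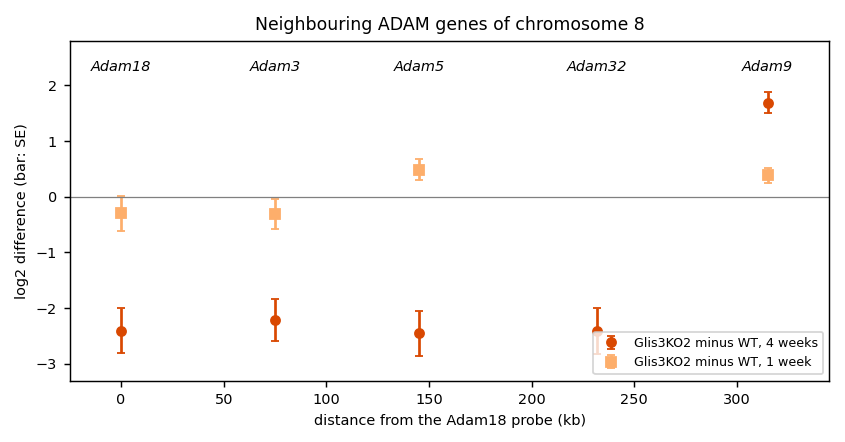
Log2 difference Glis3KO2 minus WT against the distance in kb from the Adam18 probe, for the 5 neighbouring ADAM genes of chromosome 8. Circles are 4 weeks, squares 1 week (Adam32 was not tested there), bars the standard error. At 4 weeks the 4 sperm ADAM genes lie between -2.45 and -2.21 and Adam9 at 1.69.

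At 1 week 2 of the 42 members tested were called, both higher in Glis3KO2, beside 10.1% of all 22685 genes tested, 3.95% called higher and 6.16% lower. The arrays of the genotypes did not overlap for 4 of the 42, against 27.3% of all genes. Adamts4 read -1.56, -2.02, -1.62 and -1.88 in WT and 0.61, 0.32, 1.34 and 0.78 in Glis3KO2, a difference of 2.53 (SE 0.22, limma adjusted p = 0.0028). All Glis3KO2 arrays lay above all WT arrays, within slide 1 (2.56) and within slide 2 (2.26) alike. Adamts4 has this 1 probe, with the repeat score of 9. Among genes whose probe scores 9 or more, 39.7% of 126 were called higher at 1 week, against 3.63% of the 21741 whose probe scores under 7. Among the 944 whose probe scores 7 or more it was 11.3%, and their median difference was -0.054. Adamts10, whose probe scores 8, was at 0.057 at 1 week and was not called. Whether the signal of the Adamts4 probe comes from Adamts4 transcripts was not tested.

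Adamts12 was the other call. Its brightest probe read -1.89, -1.61, -1.51 and -1.76 in WT and -0.99, -1.03, -1.39 and -0.80 in Glis3KO2 (0.64, SE 0.16, limma adjusted p = 0.044). This is the probe with the repeat score of 8, and the other 2 probes, with scores of 4, were at -0.36 and -0.29. The mean of the 3 probes was at -0.0030, and with probes that match the repeat left out the gene was at -0.29. The call was also lost without any single array other than Glis3KO2 replicate 3, with adjusted p-values between 0.055 and 0.14. The data thus hold no direction for Adamts12 that its probes share.

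**Figure D5:**
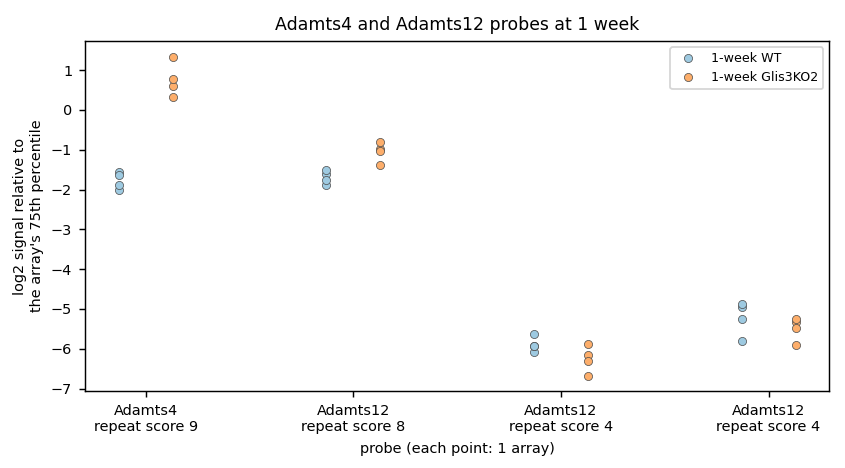
Log2 signal minus the array's 75th percentile at 1 week for the probe of Adamts4 and the 3 probes of Adamts12, each marked with its repeat score. Points are arrays. The Glis3KO2 points lie above the WT points for the probes with scores of 9 and 8 and do not for those with scores of 4.

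Of the 10 sperm ADAM genes tested at 1 week none was called with limma (2 had an unadjusted p under 0.05, 1 in each direction), and their smallest limma adjusted p was 0.087 for Adam25, which read -4.50, -5.24, -4.85 and -5.76 in WT and -6.33, -6.09, -5.31 and -6.34 in Glis3KO2. Its groups overlap. Adam4, Adam6, Adam24, Adam29 and Adam32 were too near background to be tested at this age. The median difference of the 10 was -0.43, beside -0.066 for all genes. Only 5 of the 15 sperm ADAM genes, among them Adam1a, Adam3 and Adam5, were well above background on all 8 arrays of this age. WT arrays differed among themselves: replicate 4 had the lowest WT signal in 8 of the 10 genes, at a median of -0.68 from the WT mean, where replicates 1, 2 and 3 were at 0.52, 0.04 and 0.30. Adam30 shows this, with -3.82, -4.27, -3.95 and -6.74 in WT and -6.08, -6.53, -4.79 and -6.69 in Glis3KO2. The median of the 10 genes was -0.91 within slide 1 and -0.20 within slide 2, and 0.061 with normexp background correction.

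Of the 16 genes of the further sperm list tested at 1 week, 2 fell, where 6.16% of all genes tested were called lower. These were Izumo1, by 2.08, and Clgn, encoding the chaperone calmegin that ADAM1 and ADAM2 need to pair, by 1.78. The mean of Izumo1 in 1-week Glis3KO2 was -7.27. Adam24 read -6.79 on replicate 3 of that group without being well above background, so the size of the Izumo1 fall may be limited by background. Of 6 spermatogonial markers tested at that age 5 were called lower (median -1.59), and the part of this in the sperm genes was not tested. No somatic ADAM gene was called at 1 week by limma, and 3 of 11 had an unadjusted p under 0.05. Adam9 (0.38, limma adjusted p = 0.092) and Adam8 (0.45, limma adjusted p = 0.099) were called when arrays were scaled to their median in place of the 75th percentile. That scaling moved the median of all genes at 1 week from -0.066 to 0.19, and the share of higher genes among all calls from 39.1% to 74.2%.

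With age, WT testis gained signal of all 15 sperm ADAM genes and lost that of most somatic members. Of all genes tested between the ages in WT, 80.9% were called, 31.1% higher and 49.8% lower at 4 weeks. All 15 sperm ADAM genes were called higher. For the 5 of them that were well above background on every WT array (Adam1a, Adam3, Adam5, Adam21 and Adam25), the rise was 4.12 to 10.88 on the log2 scale. The other 10 were near background on 1 or more of the 1-week WT arrays, so their differences are not ranked. The signals of the ages did not overlap for any of the 15, against 80.8% of all genes that did not overlap. Adam18 went from -6.28, -6.85, -6.40 and -7.35 at 1 week, well above background on 3 arrays, to 4.98, 4.96 and 5.04. Adam6 and Adam29 were not well above background on any 1-week array, and rose at least 168-fold and 112-fold. Their bounds are taken against the lowest signals that were well above background.

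Of the 32 somatic ADAM, ADAMTS and ADAMTSL genes tested between the ages in WT, 26 fell and 4 rose. Adamts16 fell by 5.38, from -1.10, -0.08, -0.36 and -1.15 to -6.15, -5.89 and -6.12, while its other probe, well above background on 2 of the 3 4-week WT arrays, was at -0.92. Adamts4 fell by 4.45, to a signal well above background on 2 of 3 arrays. Adam12, encoding meltrin alpha, fell at least 7.35-fold to a signal not well above background. Those that rose were Adamts20 (2.69), Adam11 (1.52), Adamts3 (1.03) and Adamts18 (0.86). The probes of Adamts3 disagree here: 1 of the others was at -4.47 in 1-week WT, well above background on all 4 arrays, and well above background on no 4-week WT array. The second probe of Adamts18 was likewise well above background on 3 of the 4 1-week WT arrays and on no 4-week array, and so was 1 of the other 2 probes of Adamts20. With the mean of all probes Adamts3 was at -1.18 and Adamts18 at -0.75.

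Glis3KO2 testis also gained sperm ADAM signal with age. All 15 were called higher at 4 weeks than at 1 week, without overlap between the ages (58.2% of all genes), where 52.5% of all genes were called, 23.6% higher and 28.9% lower. For the 6 that were well above background on every Glis3KO2 array the rise was 2.17 (Adam21) to 8.98 (Adam3), and Adam6, Adam24 and Adam29 were not well above background on any 1-week Glis3KO2 array. Of the 32 somatic members, 17 fell and 3 rose. Adamts16 fell from 0.16, -0.32, -0.12 and 0.87 to -7.37, -6.79 and -6.56, of which 1 was well above background, so the size of its fall is not measured. Adam10 and Adam17, which fell by 1.89 and 1.40 with age in WT, were at 0.06 and -0.03 in Glis3KO2 and were not called there.

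Whether the genotype difference itself differed between the ages was tested in 1 fit of all 14 arrays, where 51.0% of all genes were called, 29.4% higher and 21.6% lower. Of the 10 sperm ADAM genes tested at both ages, 6 were lower by this test, from -2.94 (Adam5) to -1.90 (Adam3), and Adam1b, Adam2, Adam26a and Adam30 were not called. The other 5 were called lower too, but were too near background at 1 week for a difference there, so their sizes are not measured. The 5 sperm ADAM genes above background on all 1-week arrays were all called. Adam18, the other of the 6, was well above background on 1 of 4 1-week Glis3KO2 arrays, so its size is limited by background. At 1 week Adam5 was at 0.49 by the probe used and at -0.48 by its other probe, so its value of -2.94 rests on 1 probe. Of the 32 somatic members 13 were higher and 5 lower, the largest being Adam33 (3.19), Adamts1 (2.65) and Adamts20 (-2.17). With the mean of all probes Adamts20 was at -0.24 (limma adjusted p = 0.75) and Adam33 at 1.67 (limma adjusted p = 0.099), and neither was called. Adam33 was also not called without 4-week Glis3KO2 replicate 1 (2.89, limma adjusted p = 0.060). Scaling to the median moved the median of all genes in this comparison from 0.25 to -0.09 and the share of higher genes among the calls from 57.7% to 42.2%, and left 8 somatic members higher.

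Adam7 is made in the epididymis, the duct beside the testis. It was well above background on 1 of the 14 arrays, 4-week WT replicate 1, at -4.34, where replicates 2 and 3 read -7.27 and -8.96, and it was not tested. Crisp1, another epididymal gene, read -0.18, -3.05 and -5.19 on the same 3 arrays, and Defb42 -5.35, -8.56 and -9.13. Replicate 1 had the highest signal of the 3 in 6 of the 7 other epididymal genes measured, and Rnase10 was lowest there (-1.93, -1.64 and -1.65). Crisp1 was also high on 1-week Glis3KO2 replicates 1 (-0.69) and 4 (-0.0042), where Adam7 read -9.08 and -9.24.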

How the data were processed

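Testis RNA was measured on 14 single-colour Agilent arrays of 45018 spots. Agilent Feature Extraction 9.5 is named in the submitters' processing notes. Its deposited output gives, per the file headers, the intensity of each spot before and after background subtraction and detrending within the array, and quality flags of 0 or 1. The authors' table of the whole series repeated the processed intensity at all 45018 spots of each array.

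Here log2 of the processed intensity was taken, non-uniform spots were left out, repeated spots were averaged, and each array's 75th percentile over non-control probes was subtracted. Gene names are those of the files. Tests used limma 3.58.1 (lmFit, eBayes) in R 4.3.3, fitted on all genes, in separate fits for genotype at each age and age in each genotype, and 1 fit of all arrays for the difference between the ages. Adjusted p-values are limma's. The procedure was also run on simulated data in which every array had the spread of the WT group. That run does not cover the wider spread of the sperm ADAM genes in 4-week Glis3KO2. Python 3.11.15, pandas 2.3.3 and matplotlib 3.10.9 made the figures and tables.

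The members, gene lists, alternatives and naming rule were chosen with earlier results of these data known. The rule gives full values for up to 8 called members per direction, class and age by size of difference, up to 3 members not called, and up to 4 genes per further list by smallest p. Alternatives were median scaling, quantile normalization, normexp (offset 50), a filter dropped or extended to all arrays, the probe mean of a gene, 1 fit, slide and replicate blocks, single slides, trended robust moderation, no repeat-matching probes, and leaving out each array. Replicate numbers are shared between groups, but same-numbered samples did not deviate together (correlations of deviations from -0.31 to 0.16 between genotypes, -0.16 to -0.03 between ages in WT and -0.01 to 0.28 in Glis3KO2, not above 0.1 in every pair of any comparison), so no pairing was used. Lower bounds are taken against the lowest signal well above background on each array. Only 30 bases of each probe are shown, because no annotation of untranslated regions in the probes' build was used here.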

Additional observations from a re-analysis of the deposited data

Results flagged for a closer look

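A single 1-week array stood apart from the others of its group in 6 of 74 groups of 4 tested, where chance gives about 1 in 20. On WT replicate 1 these were Adam5 (-4.88), Adam8 (-0.10) and Adamts8 (-0.93), and on Glis3KO2 replicate 3 Adam12 (-4.44), Adamts1 (0.18) and Adamts9 (1.23), in each case as the lowest of the 4.

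The genotype difference itself differed between 1 and 4 weeks by limma for 29 of the 47 members tested, beside 51.0% of all genes tested. It was lower at 4 weeks for the sperm ADAM genes Adam5 (-2.94), Adam1a (-2.15), Adam18 (-2.11), Adam21 (-1.95), Adam25 (-1.94) and Adam3 (-1.90). The value of Adam5 rests on 1 of its 2 probes, whose differences had opposite signs at 1 week. Adam18 was well above background on 3 of 4 1-week WT arrays and 1 of 4 1-week Glis3KO2 arrays, so its value rests in part on background. Adam32 (-3.01), Adam4 (-2.61), Adam24 (-2.52), Adam6 (-1.83) and Adam29 (-1.82) were too near background at 1 week to be tested there, so these values rest on 1-week background and have no order. Adam6 and Adam29 lost the call in 5 of 24 alternatives each and Adam32 in 1. It was also lower for Adamts20 (-2.17), Adamts16 (-1.67), Adamts4 (-1.67), Adamts3 (-1.55) and Adamts15 (-1.23). It was higher for the somatic ADAM genes Adam33 (3.19), Adam10 (1.96), Adam17 (1.37), Adam9 (1.30), Adam23 (1.09) and Adam8 (0.87). The same held for Adamts1 (2.65), Adamts10 (2.23), Adamts9 (1.37), Adamts6 (0.92), Adamts7 (0.68), Adamtsl4 (1.62) and Adamtsl5 (0.91). With the mean of all probes Adamts20 was at -0.24, Adamts3 at -0.067, Adam33 at 1.67 and Adam23 at 0.53, and none of these was called. Adamts7 lost its call in 14 of 24 alternatives, Adamts6 in 10, Adam23 in 3, Adam33, Adamts3 and Adamtsl5 in 2 each, and Adam8, Adamts15, Adamts16 and Adamts20 in 1 each. Slide and scan day move with age in these values, and their part was not tested.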

How the results depend on the processing

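At 4 weeks 14 or 15 sperm ADAM genes were called lower in every alternative run (Adam1b was lost in 1 fit of all arrays, limma adjusted p = 0.066), and 15 without any single array. Their median was -2.92 within slide 4 and -1.51 within slide 5, and -2.92 to -2.11 without single arrays. Somatic ADAM, ADAMTS and ADAMTSL genes called at 4 weeks without single arrays numbered 14 to 18 higher and 2 to 5 lower, and their median was 0.60 to 0.82, or 0.55 with normexp. At 1 week the count of members called was 4 with median scaling and 0 without repeat-matching probes (limma). In the run without those probes Adamts4 had no probe left and was not tested, so this 0 is no check of its call. The count was 1 with no filter, the mean of all probes, the slide block or the replicate block. Without single arrays it was 1 to 3 (Adamts12 from 0.55 to 0.75). The 1-week sperm ADAM median was 0.061 with normexp, -0.91 within slide 1 and -0.83 to -0.21 without single arrays. The somatic median was 0.27 with median scaling and -0.09 to 0.13 without single arrays. For the difference between the ages, median scaling left 8 somatic genes higher, and single arrays gave 8 to 11 sperm ADAM genes lower and 10 to 13 somatic genes higher. Between the ages without single arrays, 15 sperm ADAM genes rose in each genotype, and 25 to 27 somatic genes fell in WT and 16 to 18 in Glis3KO2. Signs reversed for Adamts12 at 1 week (-0.0030 with the mean of all probes, -0.29 without repeat-matching probes), Adamts16 at 4 weeks (0.036 with normexp), and Adamts18 (-0.75) and Adamts3 (-1.18) with age in WT with the mean of all probes. The cause was not tested. The replicate block changed no other count by over 1.5 times. Probes near background and 3 or 4 arrays a group limit what could be detected.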
